A study of Mus musculus with 5 samples.

Results

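Lysosomal cathepsins and legumain were followed in the hearts of NZB_W and NZW mice through 10 genes: Ctsa, Ctsb, Ctsc, Ctsd, Ctsh, Ctsk, Ctsl, Ctss, Ctsz and Lgmn. Every probe set annotated to exactly 1 of these symbols was taken, which gave 21 of the 45101 probe sets on the array, and 17 of the 21 were bright enough to be tested. The NZB_W group was 3 biological replicates from female NZB/W F1 mice with lupus nephritis and moderate kidney injury by Austin score, 12 to 15 weeks old, and the NZW group was 2 from healthy female mice of matched age; whether a replicate was 1 heart or a pool is not stated in the labels. No mouse was treated, and all hearts were perfused with saline after bleeding. The labels name the animals by strain and kidney state alone, so strain and disease cannot be told apart, and a comparison of 3 arrays with 2 holds few degrees of freedom. Values are log2 expression levels per probe set, as deposited.

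Lysosomal cathepsins are proteases that degrade proteins in the acidic endosome and lysosome, most of them made as inactive precursors and matured by cleavage. Cathepsins B, C, H, K, L, S and Z are cysteine proteases of the papain family, cathepsin D is an aspartic protease, cathepsin A a serine carboxypeptidase and legumain a cysteine endopeptidase that cuts after asparagine. Most tissues make cathepsins A, B, D and L and legumain, while cathepsins C, H, S and Z are made most strongly by leukocytes, and cathepsin K is best known from osteoclasts and fibroblasts. In antigen presenting cells cathepsin S makes the late cuts in the invariant chain, whose remnant holds the groove of MHC class II until peptide is loaded, and in heart cathepsins also serve protein turnover and matrix degradation.

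The arrays carried heart RNA by their markers: Myh6, the alpha myosin heavy chain of cardiomyocytes, read from 14.09 to 14.25, and the 8 cardiomyocyte markers had a median difference of -0.04 between the groups. NZB_W array 3 stood apart. Macrophage markers, centred on each gene's mean over the arrays, had a median of 0.81 there and -0.54 to -0.014 on the other arrays, and fibroblast markers one of 0.79 there and -0.47 to -0.007 elsewhere. Of the 8 fibroblast markers 6 were highest on that array. Col1a1, the collagen I alpha 1 chain, read 9.69 on NZB_W array 3 and 6.79 to 7.67 on the others, and Postn, the matrix protein periostin, read 10.72 against 7.86 to 8.83. The exceptions were Lum and Tcf21. Lum, the matrix proteoglycan lumican, read 11.22 there, 11.18 and 11.34 on the other NZB_W arrays and 11.58 and 11.43 in NZW. Tcf21, a fibroblast transcription factor, read 7.69, 7.65 and 7.65 against 8.14 and 7.70. Both lay wholly lower in NZB_W, Tcf21 by a very small step, where 9.84% of all genes tested did so. These 4 genes were chosen after their values were seen. Differences of the members without that array are given beside the results below. Many values were exactly equal between arrays, to 9 decimals in at least 1 pair of arrays for 47.1% of tested probe sets; the effect of these equal values on the estimated spread was not tested.

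No member passed the threshold of an adjusted p of 0.05. In limma's gene-level fit, with each gene read by its brightest probe set, 0 of 10 members passed, against 0.00841% of the 11896 genes tested, and 1 of 10, Ctsc, had an unadjusted p under 0.05 with a higher NZB_W mean, against 2.5% of genes; 0 of 10 had one with a lower mean, against 3.03%. Of the 10 genes, 7 had a higher mean in NZB_W and 3 a lower one, with a median log2 difference of 0.16 beside -0.01 over all genes tested. The groups did not overlap, with NZB_W higher, in 2 members, Ctss and Ctsc, against 7.59% of all genes; no member lay wholly lower, against 9.84%. With every probe set tested on its own, 0 of 17 passed in limma, against 0.0219% of 22804, and 1 had an unadjusted p under 0.05, where 2.27% of all tested probe sets had one with a higher and 2.98% with a lower NZB_W mean. The groups of tested member probe sets lay apart with NZB_W higher in 2 of 17, against 6.96%. Adjusted p of the members ran from 0.859 to 0.990 in the gene-level fit.

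**Figure D1:**
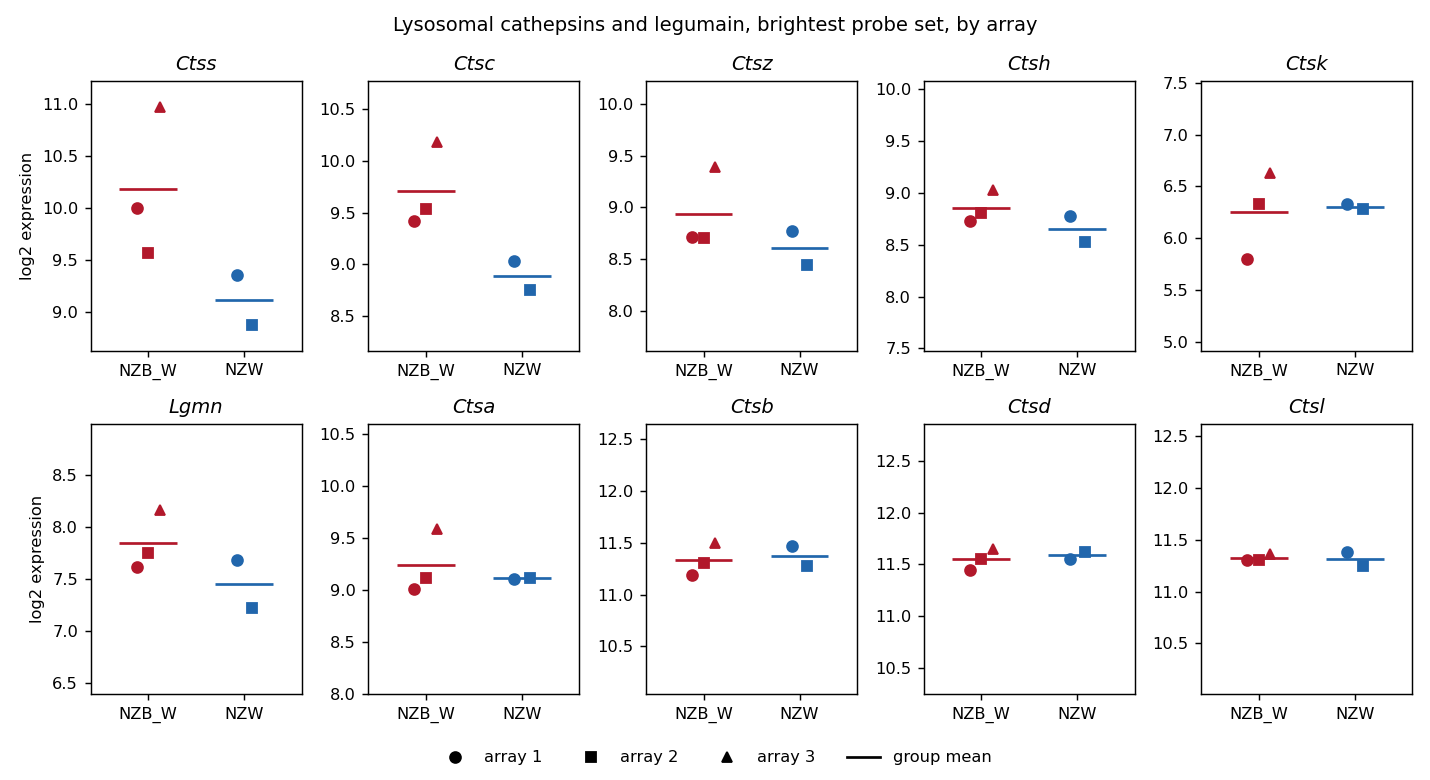
Log2 expression of the brightest probe set of each of the 10 genes on the 3 NZB_W arrays (red) and 2 NZW arrays (blue), with a line at each group mean and the same span of log2 units in every panel. In Ctss and Ctsc all NZB_W points lie above both NZW points, and NZB_W array 3 (triangle) is the highest point in 9 of the 10 panels.

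The 4 leukocyte-enriched cathepsins came first, and Ctss, which encodes cathepsin S, had the largest difference of the 10 genes. Its values were 9.996, 9.56 and 10.97 for NZB_W arrays 1, 2 and 3, in that order, against 9.35 and 8.87 for NZW arrays 1 and 2. All NZB_W values lay above both NZW values, the lowest of them by a small step and array 3 by a large one. The means were 10.18 ± 0.721 (SD, n = 3) and 9.11 ± 0.340 (SD, n = 2), a log2 difference of 1.06 (SE 0.46, 95% interval -0.15 to 2.28, limma adjusted p = 0.883) or 2.09-fold. Without NZB_W array 3 the difference was 0.67, and with NZW array 2 left out as well, a choice made after the values were known, it was 0.43. In whole-heart RNA a difference in the number of cells of a type and a difference in RNA per cell cannot be told apart.

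Ctsc, which encodes cathepsin C, the dipeptidyl peptidase that activates granule serine proteases, had the most even separation. Its bright probe set (1416382_at) read 9.42, 9.53 and 10.18 on the NZB_W arrays and 9.03 and 8.75 on the NZW arrays. The groups did not overlap, and NZB_W arrays 1 and 2 lay close together. The means of 9.71 ± 0.414 (SD, n = 3) and 8.89 ± 0.198 (SD, n = 2) differed by 0.82 (SE 0.27, 95% interval 0.11 to 1.53, limma adjusted p = 0.883), or 1.77-fold. Ctsc was the 1 member with an unadjusted p under 0.05 (0.0314 in the probe set fit). Its difference was 0.58 without NZB_W array 3 and 0.44 with NZW array 2 also left out, and it kept a positive sign in every setting tried. Of its 2 dim probe sets, below the brightness filter and not tested, 1437939_s_at read 5.16 on NZB_W array 3 and 3.45 to 3.59 on the other 4 arrays, and 1446834_at read 3.14 to 3.88 in NZB_W and 3.30 and 3.41 in NZW.

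Promoters of Ctss and Ctsc are shown because these 2 genes were the ones whose groups separated. The sequences are from RefSeq on GRCm38.p6, 5′ to 3′ along the gene, with 250 bases before and 50 after the annotated start, and capitals mark motif matches. The motifs searched on both strands were GAGGAAGT, which the myeloid factor PU.1 is known to bind, GAAA, any 2 bases and GAAA, the core of interferon-stimulated response elements, TTCNNNGAA, the core of STAT sites, and CACGTG, the E-box core of the elements that the lysosomal regulators TFEB, TFE3 and MITF bind.
Ctss, chr3:95526536-95526835, plus strand: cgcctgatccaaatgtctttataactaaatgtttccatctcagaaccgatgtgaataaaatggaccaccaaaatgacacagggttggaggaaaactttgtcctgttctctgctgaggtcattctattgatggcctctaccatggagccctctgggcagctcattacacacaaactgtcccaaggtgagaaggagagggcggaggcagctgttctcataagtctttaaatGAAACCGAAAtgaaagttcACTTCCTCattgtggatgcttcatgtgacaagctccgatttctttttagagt
Ctsc, chr7:88277835-88278134, plus strand: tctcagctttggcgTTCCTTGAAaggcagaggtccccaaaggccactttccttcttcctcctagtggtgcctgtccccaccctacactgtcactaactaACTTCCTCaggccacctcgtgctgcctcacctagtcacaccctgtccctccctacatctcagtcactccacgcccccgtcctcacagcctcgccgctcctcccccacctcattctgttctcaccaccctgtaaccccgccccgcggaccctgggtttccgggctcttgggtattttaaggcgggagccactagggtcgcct
A palindrome such as CACGTG was counted once per position. The Ctss window holds GAAACCGAAA at -21 to -12 from the start and GAGGAAGT, read on the opposite strand as ACTTCCTC, at -2 to 6. The Ctsc window holds GAGGAAGT on the opposite strand at -151 to -144 and TTCCTTGAA at -236 to -228. Of 32851 mouse promoter windows of this length, GAGGAAGT was in 3.20%, the interferon element core in 3.44%, TTCNNNGAA in 8.30% and CACGTG in 7.15%. Such matches describe letters in a window and do not show a bound site.

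Ctsz and Ctsh completed the leukocyte-enriched class, with smaller differences and overlapping groups. Ctsz, which encodes the carboxypeptidase cathepsin Z, read 8.72, 8.70 and 9.39 on the NZB_W arrays and 8.78 and 8.45 on the NZW arrays by its brightest probe set. Only NZB_W array 3 lay above both controls, and NZB_W arrays 1 and 2 lay between them. The difference was 0.32 (SE 0.26, 95% interval -0.37 to 1.01), and 0.097 without NZB_W array 3. The other Ctsz probe sets, 1417869_s_at and 1417870_x_at, differed by 0.15 (SE 0.30) and 0.22 (SE 0.26) and were also highest on NZB_W array 3.

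Ctsh, which encodes cathepsin H, an aminopeptidase, read 8.73, 8.80 and 9.03 in NZB_W and 8.78 and 8.52 in NZW. NZB_W arrays 1 and 2 lay on either side of NZW array 1, and NZW array 2 was the lowest of the 5. The difference was 0.20 (SE 0.13, 95% interval -0.15 to 0.55) and 0.14 (SE 0.18) on the dimmer probe set. It was 0.073 without NZW array 2 and 0.11 without NZB_W array 3.

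Ctsk, which encodes the collagen-degrading cathepsin K, had overlapping groups and nearly equal means. It read 5.80, 6.33 and 6.63 on the NZB_W arrays and 6.33 and 6.28 on the NZW arrays, so the NZB_W values lay on both sides of the controls. The difference was -0.05 (SE 0.26, 95% interval -0.73 to 0.63), and it was -0.24 when NZB_W array 3 was left out and 0.18 when NZB_W array 1 was. The array order of Ctsk was that of the fibroblast markers at both ends. Centred on its mean, Ctsk was at -0.47 on NZB_W array 1 and 0.36 on NZB_W array 3. The fibroblast median was at -0.47 and 0.79 on these arrays. Such ends were not particular to Ctsk, since the brightest probe sets of Ctsa, Ctsb and Ctsd had them too. So did the centred medians of lysosomal hydrolases and activators (-0.083 and 0.188) and of V-ATPase subunits (-0.06 and 0.078). Summed over 8 genes, fibroblast marker levels on the linear scale ran from 10940 to 21634 in NZB_W and from 13136 to 14374 in NZW, and their median difference was 0.076 with all arrays and -0.36 without NZB_W array 3; their part in the Ctsk values was not tested. Of 6 osteoclast markers, Calcr, Ocstamp, Oscar and Atp6v0d2 were below the brightness filter on these arrays. Ctsk lies next to Ctss on chromosome 3, with 1 annotated start, of a long noncoding RNA, between theirs. The Ctsk promoter window held none of the 4 motifs.

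The broadly expressed proteases differed little, apart from legumain. Lgmn, which encodes legumain, the enzyme that cleaves several cathepsins into their 2-chain forms, read 7.62, 7.75 and 8.16 in NZB_W and 7.68 and 7.22 in NZW. The groups overlapped, since NZW array 1 lay above NZB_W array 1. The difference was 0.39 (SE 0.23, 95% interval -0.20 to 0.99) and 1.31-fold. It was 0.17 without NZW array 2, 0.23 without NZB_W array 3, 0.62 without NZW array 1 and 0.0061 when both NZB_W array 3 and NZW array 2 were left out.

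Ctsa, which encodes cathepsin A, the protective protein of lysosomal neuraminidase and beta-galactosidase, read 9.01, 9.12 and 9.59 in NZB_W and 9.11 and 9.12 in NZW. NZB_W array 3 was the one value away from the rest. The difference was 0.12 (SE 0.19, 95% interval -0.38 to 0.63) and turned to -0.050 without that array. A dimmer Ctsa probe set differed by 0.014 (SE 0.13).

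Ctsb, which encodes cathepsin B, an endopeptidase that also acts as a carboxypeptidase, had 5 probe sets, of which 4 were tested. Its brightest (1417490_at) read 11.19, 11.31 and 11.50 in NZB_W and 11.47 and 11.27 in NZW. The groups overlapped throughout, with a difference of -0.04 (SE 0.12, 95% interval -0.37 to 0.29), and -0.12 without NZB_W array 3. The other 3 tested probe sets differed by -0.14 (SE 0.10), -0.01 (SE 0.12) and 0.08 (SE 0.19). In the first of these, 1417492_at, both NZW values (8.59 and 8.54) lay above the NZB_W values (8.27, 8.51 and 8.51), the 1 member probe set that was wholly lower in NZB_W, against 9.66% of all tested probe sets. Probe set 1417491_at held the same value, 7.07, on 3 of the 5 arrays.

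Ctsd, which encodes cathepsin D, the main aspartic protease of lysosomes, read 11.45, 11.56 and 11.65 in NZB_W and 11.56 and 11.62 in NZW. The NZB_W values surrounded the controls, and the difference was -0.04 (SE 0.085, 95% interval -0.26 to 0.19), and -0.086 without NZB_W array 3. Ctsl, which encodes cathepsin L, a broadly acting endopeptidase whose loss in mice leads to dilated cardiomyopathy, read 11.30, 11.30 and 11.36 in NZB_W and 11.38 and 11.24 in NZW. Its difference of 0.0064 (SE 0.073, 95% interval -0.19 to 0.20) had the narrowest interval of the tested member probe sets, and it was -0.013 without NZB_W array 3. The dim probe sets of Ctsb (1444987_at, 4.19 to 4.24) and Ctsl (1457724_at, 2.92 to 3.46) were below the brightness filter.

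**Figure D2:**
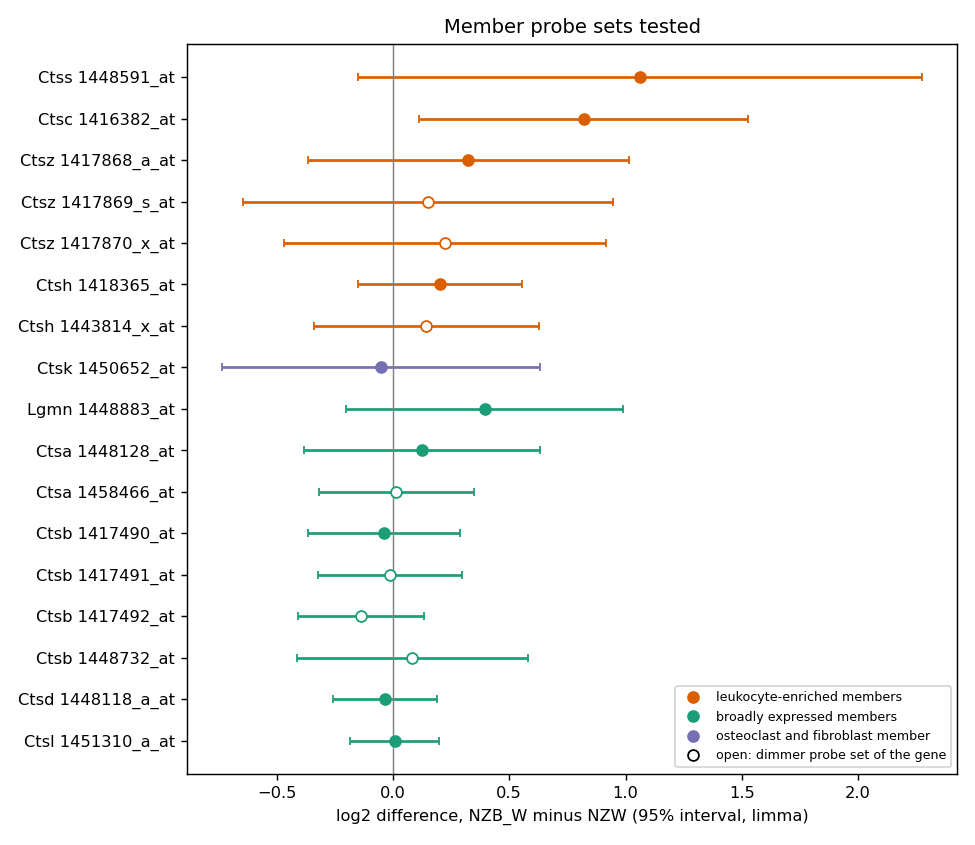
Log2 difference (NZB_W minus NZW) with its 95% interval from limma for the 17 tested probe sets, coloured by class, with open symbols for the dimmer probe sets of a gene. The interval of Ctsc 1416382_at is the one that does not include 0, and those of Ctsd and Ctsl are the narrowest.

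Promoters of Ctsd and Ctsa are shown because they belong to broadly expressed genes and hold CACGTG, the motif of lysosomal gene control, more than once. Ctsa has another annotated start upstream, whose window holds none of the 4 motifs.
Ctsd, chr7:142387778-142388077, minus strand: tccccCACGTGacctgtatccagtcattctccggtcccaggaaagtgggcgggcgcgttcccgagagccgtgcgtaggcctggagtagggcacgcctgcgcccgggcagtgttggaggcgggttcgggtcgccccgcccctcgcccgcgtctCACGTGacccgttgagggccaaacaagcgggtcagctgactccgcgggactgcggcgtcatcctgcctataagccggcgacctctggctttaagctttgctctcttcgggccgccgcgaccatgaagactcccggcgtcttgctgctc
Ctsa, chr2:164833523-164833822, plus strand: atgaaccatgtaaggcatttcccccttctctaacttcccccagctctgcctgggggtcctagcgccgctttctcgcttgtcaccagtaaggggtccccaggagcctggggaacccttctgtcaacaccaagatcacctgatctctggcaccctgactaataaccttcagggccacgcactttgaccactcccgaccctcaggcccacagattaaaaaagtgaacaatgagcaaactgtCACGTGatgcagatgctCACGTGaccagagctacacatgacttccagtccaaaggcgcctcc
CACGTG stood at -245 to -240 and at -98 to -93 in Ctsd, and at -12 to -7 and at 6 to 11 in Ctsa. It was also in the window of Ctsl and in the downstream one of the 2 windows of Lgmn, and in none of the windows of Ctsc, Ctsk, Ctss or Ctsz. The window of Ctsz, also leukocyte-enriched, held none of the 4 motifs. Of the 10 genes, 8 had a promoter entry, with 10 windows in all, and Ctsb and Ctsh had no entry.

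The 2 classes were set against each other by array, relative to each gene's own mean and not in level. On that scale the leukocyte-enriched class lay above the broadly expressed one on NZB_W arrays 1 and 3 and under it on the others. The sign on an array follows from this centring, so only the order of the arrays is read. After each gene was centred on its mean over the arrays, the mean of Ctsc, Ctsh, Ctss and Ctsz minus that of Ctsa, Ctsb, Ctsd, Ctsl and Lgmn was 0.145, -0.016 and 0.484 on the NZB_W arrays and -0.21 and -0.404 on the NZW arrays. All 3 NZB_W values lay above both NZW values. The class means differed by 0.51 between the groups, by 0.39 with the mean of all probe sets, and by 0.28 when NZB_W array 3 and NZW array 2 were both left out. Members of the leukocyte-enriched class were uneven. Ctss (1.06) and Ctsc (0.82) had the largest differences, while Ctsz (0.32) and Ctsh (0.20) lay below Lgmn (0.39) of the broadly expressed class. The classes came from general knowledge of these genes with earlier results known, so no test was made of this score.

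The median of the macrophage markers put the 5 arrays in the same order as the mean of the leukocyte-enriched cathepsins. That order was not particular to macrophage markers. Centred medians of red blood cell markers (1.44, -0.67 and 2.17 in NZB_W, -1.33 and -1.61 in NZW) had it too. So did those of MHC class II genes with the invariant chain (0.54, -0.19 and 1.19, then -0.48 and -1.10). Of 16 macrophage markers 15 were tested, and all 15 had a higher NZB_W mean (median 0.64). In 10 the groups did not overlap, against 7.59% of all genes. In limma 0 passed over all genes and 3 had an unadjusted p under 0.05, where 2.5% of all genes had one with a higher NZB_W mean. The median was 0.33 without NZB_W array 3 and 0.37 without NZW array 2. Cx3cr1 was below the brightness filter. Their summed linear level was 5172 to 9243 in NZB_W and 3515 to 4776 in NZW. Itgam, the integrin CD11b, differed by 1.35 (SE 0.20), C1qb, a complement C1q chain, by 1.01 (SE 0.31) and Cd14, a lipopolysaccharide co-receptor, by 0.64 (SE 0.19). Itgam passed the brightness filter through NZB_W alone, since it read 3.69 and 3.77 in NZW, under the medians of those arrays (4.64 and 4.62). It was among the 10 without overlap and the 3 with an unadjusted p under 0.05. Ctss minus the macrophage median, both centred, was 0.26, -0.13 and 0.41 in NZB_W against -0.28 and -0.34 in NZW. Ctsc minus that median was 0.050, 0.20 and -0.011 against -0.24 and -0.095. In both, all NZB_W values stayed above the NZW values. Ctss and Ctsc were the members whose groups did not overlap, so this order depends on that choice and is no test. The part of macrophage content in the cathepsin differences was not tested.

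**Figure D3:**
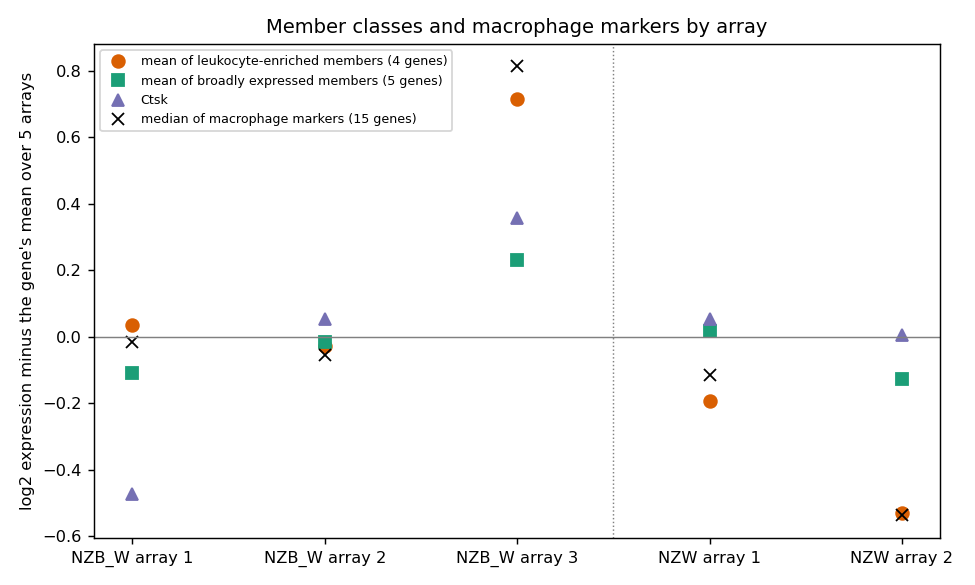
Expression on each array, in log2 units relative to each gene's mean over the 5 arrays, for the mean of the 4 leukocyte-enriched members, the mean of the 5 broadly expressed ones, Ctsk, and the median of 15 macrophage markers. Leukocyte-enriched members and macrophage markers lie together at the top on NZB_W array 3 (0.715 and 0.813) and at the bottom on NZW array 2 (-0.529 and -0.537), while the broadly expressed members stay between -0.126 and 0.231.

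Markers of the other cell types that a heart sample can hold were measured the same way. Neutrophil markers had a median difference of -0.26 (4 of 8 tested, summed level 136 to 254 in NZB_W and 185 to 208 in NZW), with Cxcr2, Mmp8, Elane and Ltf below the filter; the median was -0.56 when NZB_W array 3 was left out and 0.11 when NZB_W array 2 was. T and NK cell markers had a median of 0.012 (2 of 8 tested, 195 to 221 against 191 to 194), with Cd3d, Cd3g, Cd8a, Cd2, Ncr1 and Nkg7 below it. B and plasma cell markers had a median of 0.67 (4 of 7 tested, 404 to 508 against 234 to 356), with Cd79a, Cd79b and Ms4a1 below the filter. The tested genes were uneven. Igha, the immunoglobulin A constant region, differed by 1.13 (SE 0.16) and Jchain by 1.58 (SE 0.455), but Ighm by 0.20 (SE 0.457) and Pax5 by -0.0069 (SE 0.082). Endothelial markers had a median of 0.068 over 6 genes (2194 to 2727 against 2232 to 2254). Red blood cell markers had a median of 2.45 over 2 tested genes, Alas2 and Slc4a1 (292 to 1453 against 163 to 184), with Hba-a1 and Epb42 below the filter. Slc4a1 passed the filter through NZB_W alone, since it read 4.30 and 3.93 in NZW, under the medians of those arrays (4.64 and 4.62). Adipocyte markers had a median of -0.42 over 3 genes (6824 to 8434 against 6730 to 7003), which was 0.11 without NZW array 1 and -0.90 without NZW array 2. Osteoclast markers had a median of 0.55 over 2 genes, Acp5 and Dcstamp (118 to 216 against 96.7 to 114). In none of these lists did a gene pass in limma over all genes. Unadjusted p was under 0.05 for 2 B and plasma cell genes, 1 red blood cell gene, 1 fibroblast gene and 1 mast cell gene. Over all genes tested, 2.5% had such a p with a higher NZB_W mean and 3.03% with a lower one.

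The genes whose profile over the 5 arrays lay closest to that of Ctss were Lcp1, Irgm1, Cdr2, Acp5 and H2-Eb1. Closeness was the root mean square distance between centred log2 values over 5 arrays, and it was 0.079 for Lcp1, the leukocyte actin-bundling protein L-plastin, 0.13 for Irgm1, an interferon-inducible GTPase, 0.13 for Cdr2, 0.15 for Acp5, the tartrate-resistant acid phosphatase of lysosomes, and 0.16 for H2-Eb1, an MHC class II chain. Lcp1 read 7.78, 7.53 and 8.93 in NZB_W and 7.14 and 6.74 in NZW, the same order of arrays as Ctss. A dimmer Lcp1 probe set differed by 0.65 where the brightest differed by 1.14. Among the members, Ctsc was the closest to Ctss, at 0.28 and rank 53 of all genes tested, followed by Ctsz at 0.43 and Lgmn at 0.46, and Ctsd was the farthest at 0.70.

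The invariant chain, a substrate of cathepsins S and L, was measured together with its MHC class II partners. The NZB_W mean was higher in 6 of 6 tested genes of this list (median 1.31). In 5 of the 6 the groups did not overlap, against 7.59% of all genes. In limma 0 passed over all genes and 3 had an unadjusted p under 0.05, where 2.5% of all genes had one with a higher NZB_W mean. The median was 0.93 without NZB_W array 3 and 1.01 without NZW array 2. Cd74, the invariant chain cut by cathepsin S, read 9.73, 8.96 and 10.50 in NZB_W and 8.62 and 8.11 in NZW, with the order of arrays seen in Ctss. It differed by 1.36 (SE 0.49), H2-Aa by 1.38 (SE 0.40) and H2-Ab1 by 1.49 (SE 0.46), while Ciita, the class II transactivator, was below the brightness filter. Dimmer H2-Aa probe sets differed by 1.04 (SE 0.45) and 2.44 (SE 0.38), so the size of its difference depended on the probe set. Dimmer H2-Ab1 probe sets differed by 1.34 (SE 0.33) and 1.38 (SE 0.41). The effect of strain sequence on these probe sets was not tested.

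Granule serine proteases listed as cathepsin C substrates were dim on these arrays. Whether cathepsin C activates each of them, the tryptase Tpsb2 among them, was not tested. Of the 8 genes of this list, 5 (Ctsg, Elane, Gzma, Gzmb and Mcpt4) were below the filter. The 3 tested had lower NZB_W means: the mast cell tryptase Tpsb2 by -0.31 (SE 0.13), the chymase Cma1 by -0.45 (SE 0.22) and the neutrophil protease Prtn3 by -0.13 (SE 0.086). None passed in limma, over all genes or at an unadjusted p under 0.05. The mast cell marker Cpa3, a carboxypeptidase stored with the chymase, read 5.29, 5.19 and 5.03 in NZB_W and 6.08 and 5.64 in NZW, a difference of -0.69 (SE 0.16). The 3 tested mast cell markers had a median of -0.45 (summed level 141 to 158 in NZB_W and 171 to 212 in NZW). These 3 were Cpa3 and the same Cma1 and Tpsb2 probe sets as above, and their median is the Cma1 value. They are therefore not a separate observation from the protease list, apart from Cpa3.

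Inhibitors and the other cathepsins were measured as well, and no gene of either list passed. Cst3, cystatin C, the secreted inhibitor of cysteine cathepsins, read 12.18, 12.23 and 12.17 in NZB_W and 12.31 and 12.32 in NZW. It lay wholly lower in NZB_W, against 9.84% of all genes, with a difference of -0.12 (SE 0.058). Cst6, another cystatin, differed by -0.18 (SE 0.094) and Ctla2b, a relative of the cathepsin propeptide, by 0.14 (SE 0.12). Of 5 tested inhibitors 3 had higher and 2 lower NZB_W means (median 0.040), and 0 passed in limma, with 0 at an unadjusted p under 0.05. Of 14 other cathepsin genes 10 were below the brightness filter, 8 of them placental cathepsins such as Ctsj and Ctsq. The 4 tested had a median of 0.29, which was 0.049 without NZW array 2. Ctse, an intracellular aspartic protease, differed by 0.69 (SE 0.32), Ctso by 0.27 (SE 0.15), Ctsw, of cytotoxic lymphocytes, by 0.32 (SE 0.19) and Ctsf by -0.12 (SE 0.14), with 0 passing in limma or at an unadjusted p under 0.05.

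The other lysosomal lists had medians near that of all genes. Lysosomal hydrolases and activators had a median of 0.030 over 31 tested genes, 17 higher and 14 lower; membrane proteins one of 0.023 (9 higher, 5 lower of 14); V-ATPase subunits, which acidify the lysosome, 0.011 (10 higher, 6 lower of 16); sorting genes 0.0057 (6 higher, 4 lower of 10); and the regulators Tfe3, Mitf and Tfeb 0.063 (3 higher of 3). The median over all genes tested was -0.01. No gene of these lists passed in limma over all genes. Over all genes tested, 2.5% had an unadjusted p under 0.05 with a higher NZB_W mean and 3.03% with a lower one. In these lists 1 hydrolase, 1 membrane protein and 1 sorting gene had one.

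Those 3 were Fuca1, Npc1 and Gnptab. Fuca1, the lysosomal alpha-fucosidase, read 8.78, 8.75 and 9.08 in NZB_W and 8.52 and 8.27 in NZW. The difference was 0.47 (SE 0.14) without overlap, where 7.59% of all genes lay wholly higher in NZB_W. Its dimmer probe sets differed by 0.30 (SE 0.15) and 0.13 (SE 0.11). Npc1, the membrane protein that exports cholesterol from lysosomes, read 6.16, 6.53 and 6.32 against 6.59 and 6.87, a difference of -0.39 (SE 0.15). Gnptab, a subunit of the phosphotransferase that starts the mannose 6-phosphate tag by which cathepsin precursors reach the lysosome, read 7.51, 7.77 and 7.72 against 6.76 and 7.15. It differed by 0.71 (SE 0.15, limma adjusted p = 0.735), a dimmer probe set by 0.92 (SE 0.093) and another by -0.04 (SE 0.072), so its probe sets disagreed. The receptors that carry the tagged enzymes, M6pr and Igf2r, differed by -0.06 (SE 0.060) and -0.06 (SE 0.069).

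**Figure D4:**
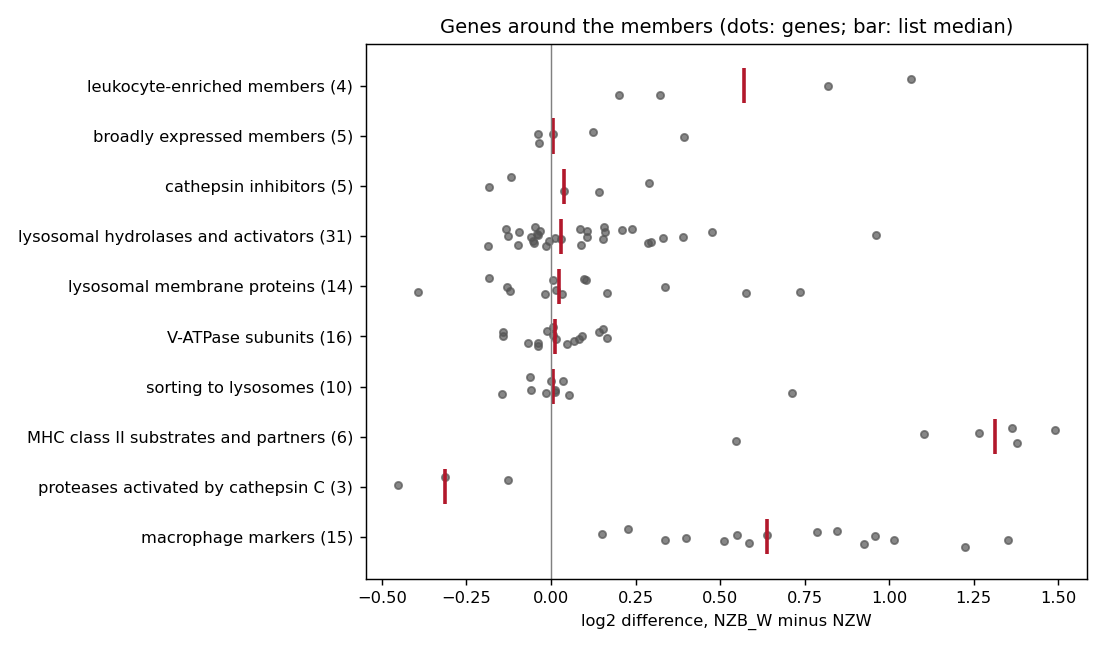
Log2 differences (NZB_W minus NZW) of the tested genes in each list, 1 dot a gene, with a red bar at the list's median and the number of genes in brackets; vertical scatter within a row is for display. Class II genes (median 1.31), macrophage markers (0.64) and leukocyte-enriched members (0.57) lie to the right, and the medians of the hydrolases, membrane proteins, V-ATPase subunits and sorting genes lie between 0.0057 and 0.030.

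The arrays at the ends recurred across the members. NZB_W array 3 alone held the highest value in 13 of the 17 tested member probe sets, or 76.5%, against 27.6% of all tested probe sets, and NZW array 2 alone the lowest in 9 of 17, against 18.2%. Of the remaining 8, 7 were lowest on NZB_W array 1 and 1, the dimmer Ctsa probe set 1458466_at, on NZB_W array 2. Leaving out NZB_W array 3 gave lower differences in all 10 genes, and leaving out NZW array 2 as well left Ctss at 0.43 and Ctsc at 0.44, Lgmn at 0.0061 and the other 7 genes below 0.

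**Figure D5:**
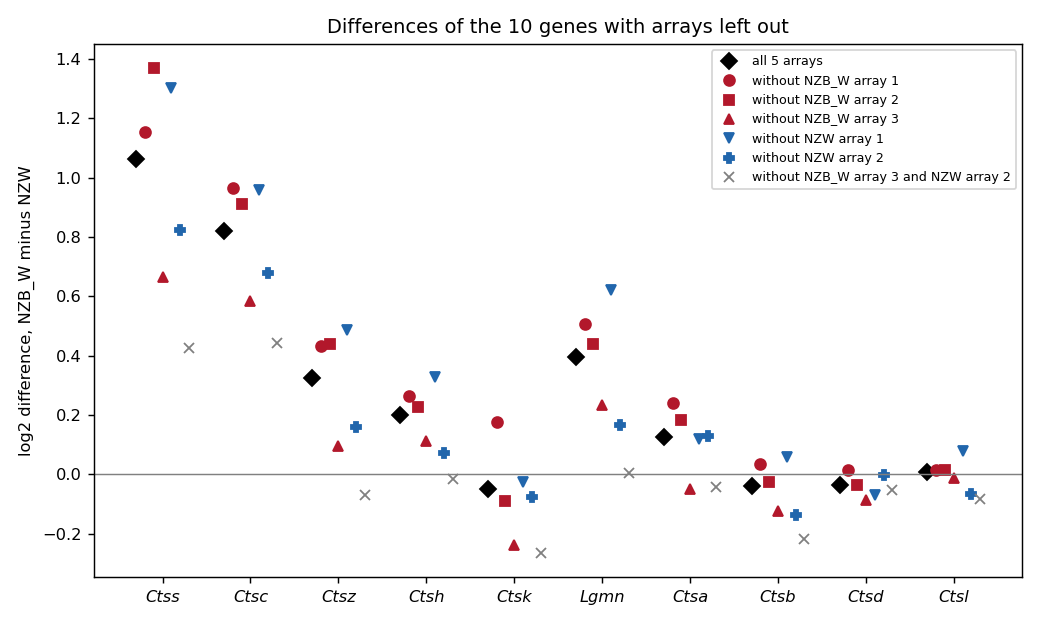
Log2 difference (NZB_W minus NZW) of each gene with all 5 arrays (black diamond), with 1 array left out (red or blue) and with NZB_W array 3 and NZW array 2 both left out (grey cross). Ctss stays between 0.43 and 1.37 and Ctsc between 0.44 and 0.97, while the grey cross lies at or under 0.0061 for the other 8 genes.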

How the data were processed

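Per the labels' protocols, each of 5 Affymetrix Mouse Genome 430 2.0 arrays measured heart RNA of 1 biological replicate. The deposited values are log2 expression levels per probe set with near-equal quartiles on all arrays (medians 4.62 to 4.68). RMA, GCRMA and Partek appear in the submitters' processing notes, with no version and no statement of what each did; the sources used here do not say which of them summarised the probes. No detection calls were used.

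Groups came from sample titles. Of 45101 probe sets, 64 were controls, 34945 had 1 gene symbol, 932 several and 9160 none; 34741 matched a RefSeq gene identifier, and 0 symbols changed. Probe sets above the median of their array on at least 2 arrays were tested with limma 3.58.1 in R 4.3.3 (two-sided, no covariates, Benjamini-Hochberg over all tested, threshold 0.05), once over probe sets and once over genes by their brightest probe set; the script was tested on simulated data. Member values and their SE come from the probe set fit, other genes' from the gene fit. Summed levels add 2 to the power of each gene's log2 value. The residual degrees of freedom were 3, the prior added 1.69 in the gene fit, and 127 tested probe sets had no spread inside either group.

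The members, classes, lists and motifs were chosen with earlier results of these data known. Named genes are the members, up to 3 genes per list by smallest p, and the 5 nearest to Ctss; not every one is printed, and others were chosen after their values were seen. Alternatives covered normalization, brightness filter, probe set choice, variance model, array weights, a replicate block, a threshold of 0.1 and arrays left out. Figures were drawn with matplotlib 3.10.9.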

Additional observations from a re-analysis of the deposited data

How the results depend on the processing

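No member passed in any alternative, in the probe set or the gene fit (0 in each), and the smallest adjusted p of a member was 0.451, for Ctsc with array weights in limma's gene fit. Over the whole table limma called 5 probe sets and 1 gene; it called 2 probe sets with no filter or a filter on all arrays, 3 without _s_at, _x_at and _a_at probe sets, 16 with array weights (8 genes), 5 genes from the mean of all probe sets, 0 to 2 probe sets with 1 array left out, and 0 of either with the replicate block. Where 1 NZW array was left, it was assumed to vary like the other group. Ctss, Ctsc and Lgmn kept their sign throughout. Small differences changed sign, with causes not tested. With a replicate block Ctsa was -0.050, Ctsl -0.013, and Ctsz 1417869_s_at and 1417870_x_at -0.13 and -0.0061; Ctss was 0.67 and Ctsc 0.58. The shared numbers pair no samples by the labels, and same-numbered arrays deviated with correlations of -0.258 and 0.102. Array weights gave Ctsa 1458466_at -0.053, Ctsl -0.0086 (-0.0085 in the gene fit) and Ctsz 1417869_s_at -0.023, and Ctsl was -0.016 with quantile normalization and -0.0074 with median centring. With both NZB_W array 3 and NZW array 2 left out, a choice made after the values were known, Ctsa was -0.044, Ctsb 1448732_at -0.20, Ctsh -0.015 and -0.19, Ctsl -0.084, and Ctsz -0.068, -0.19 and -0.17. The leukocyte-enriched minus broadly expressed difference was then 0.28. List medians in that setting were 0.21 for leukocyte-enriched members, 0.073 for other cathepsins, -0.031 for sorting, 0.62 for class II, -0.13 for cathepsin C substrates, and for markers 0.11 (macrophage), -0.81 (neutrophil), -0.76 (mast cell), -0.48 (fibroblast), 0.10 (osteoclast), 0.0049 (cardiomyocyte) and -0.91 (adipocyte). With no filter they were 0.028 for other cathepsins, -0.070 for cathepsin C substrates, 0.14 for T and NK, 0.078 for B and plasma, 0.093 for osteoclast and 1.18 for red blood cell markers. Without _s_at, _x_at and _a_at probe sets they were 0.12 for broadly expressed members, -0.13 for cathepsin C substrates and -0.69 for mast cells. Sorting was -0.029 with array weights and -0.031 with the block, which put the MiT/TFE regulators at 0.10; the mean of all probe sets put B and plasma markers at 1.35.

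With 1 array left out, differences ran from -0.050 to 0.24 for Ctsa and -0.094 to 0.081 for its dimmer probe set, -0.14 to 0.059, -0.097 to 0.075 and -0.21 to 0.38 for Ctsb 1417490_at, 1417491_at and 1448732_at, -0.086 to 0.016 for Ctsd, -0.087 to 0.37 for Ctsh 1443814_x_at, -0.24 to 0.18 for Ctsk, -0.065 to 0.078 for Ctsl, and -0.13 to 0.33 and -0.0061 to 0.38 for Ctsz 1417869_s_at and 1417870_x_at. List medians ran from 0.35 to 0.72 for leukocyte-enriched and -0.050 to 0.078 for broadly expressed members, 0.049 to 0.54 for other cathepsins, -0.11 to 0.15 for inhibitors, 0.93 to 1.68 for class II, -0.030 to 0.098 for V-ATPase, -0.031 to 0.010 for sorting, 0 to 0.12 for MiT/TFE, -0.38 to -0.16 for cathepsin C substrates, 0.45 to 1.06 for B and plasma, 0.33 to 0.86 for macrophage, -0.56 to 0.11 for neutrophil, -0.36 to 0.31 for fibroblast, 0.26 to 0.75 for osteoclast, 1.68 to 3.27 for red blood cell, -0.79 to -0.42 for mast cell and -0.90 to 0.11 for adipocyte markers.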
